A study of Mus musculus with 12 samples.

Results

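The mitochondrial ribosomal protein genes are the nuclear genes whose symbols begin with Mrpl, for the large subunit of the mitochondrial ribosome, or with Mrps, for the small subunit. They were chosen by symbol alone, as Mrpl or Mrps followed by a number and at most 1 letter. This gave 78 of the 51826 entries of the count table, 49 of the large and 29 of the small subunit. All 78 had reads in every library and passed the filter on low counts in every comparison. The main difference in these data was between chambers. Nearly all of the 78 genes were higher in ventricles than in atria, in both genotypes, while Mrps6 was lower. Between genotypes, 5 of the 78 passed the test in atria and 5 in ventricles, none of them with a fold change of 1.5. Of all genes tested, 2573 of 17650 passed in atria and 1680 of 16909 in ventricles, a larger share in each chamber.

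The samples were atria and ventricles of 6 female FvB mice that were 10 weeks old. The 3 CUG960 +dox mice (V119, V120 and V123) had the genotype TREDT960I(H)/MHCrtTA(hemi), a tetracycline-responsive human DMPK transgene with 960 CUG repeats together with MHCrtTA. The 3 MHCrtTA +dox controls (V327, V333 and V334) had the genotype MHCrtTA(hemi). In both groups dox began on postnatal day 1, so that the groups share the drug and the transactivator. They differ in the repeat transgene, which the alpha myosin heavy chain promoter restricts to cardiomyocytes through rtTA. Per the study's methods the groups also came from separate crosses, so cross and transgene cannot be told apart. The repeat RNA models that of myotonic dystrophy type 1 in cardiomyocytes and not in the other cells of the heart. Each chamber of each mouse gave 1 poly(A) RNA-Seq library, 3 per group and 12 in all, and a library held between 116127966 counts (CUG960 atria V123) and 160676189 counts (CUG960 ventricles V119). The lowest count of any of the 78 genes in a library was 1554, so none was near the floor. How counting error compares with the spread between mice differs by gene and was not tested.

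The mitochondrial ribosome translates the few messenger RNAs of the mitochondrial genome, all of which encode subunits of the oxidative phosphorylation complexes. Its ribosomal RNAs come from mitochondrial DNA, while its proteins are encoded in the nucleus, translated in the cytosol and imported. Many have a bacterial relative and others are found in mitochondria alone. Cardiac muscle is rich in mitochondria, and inherited defects of several of these proteins cause cardiomyopathy.

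Levels are given as CPM, the counts of a gene relative to the size of its library, after scaling by TMM (trimmed mean of M values), a factor per library that sets most genes level between libraries. Differences are log2 fold changes with their SE. A gene passed the test at an adjusted p under 0.05 in the quasi-likelihood test of edgeR, with Benjamini-Hochberg adjustment over all genes tested. The share of all genes tested that passed is given as the background beside the counts of the 78 genes in each comparison, and it holds for the other gene lists of the same comparison. Replicates are separate mice, and atria and ventricles come from the same mice.

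The chamber labels matched the markers. All 5 markers of atrial cardiomyocytes were lower in ventricles of both genotypes, and all 4 markers of ventricular cardiomyocytes were higher. Myl7, the atrial myosin light chain, was at 2532 to 3318 CPM in the 6 atrial libraries. In ventricles it was at 7.98, 4.95 and 19.3 CPM in controls and at 0.192, 0.305 and 55.8 CPM in CUG960 mice. The CUG960 ventricle library of V123 thus held more of this atrial transcript than the other 2, and results without that mouse are given with those of the other mice left out.

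The sequences just before the start of transcription are shown for 4 of the genes that the comparisons turn on and for Slc5a3, which starts beside Mrps6. Mrps18a and Mrpl36 had among the largest ventricular excess, Mrpl3 fell in CUG960 ventricles, and Mrps6 was the gene with the opposite chamber difference. Each run holds the 100 bases before the RefSeq start site, on the strand of the gene (all plus) in GRCm38.p6. They are chr17:46110904-46111003 for Mrps18a, chr13:73330909-73331008 for Mrpl36, chr9:105053168-105053267 for Mrpl3, chr16:92058236-92058335 for Mrps6 and chr16:92058222-92058321 for Slc5a3. Capitals mark matches, on either strand, to the ETS motif CCGGAAG in Mrps18a and Mrpl3, to the E-box CACGTG and then, on the opposite strand, to the YY1 motif in Mrpl36, and to the GC box GGGCGG in Mrps6 and Slc5a3, where the first 2 in Slc5a3 overlap.
Mrps18a: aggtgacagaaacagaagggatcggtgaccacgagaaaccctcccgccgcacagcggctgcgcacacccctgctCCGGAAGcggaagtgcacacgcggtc
Mrpl36: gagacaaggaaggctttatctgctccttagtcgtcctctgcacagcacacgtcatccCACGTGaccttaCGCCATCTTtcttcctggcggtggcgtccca
Mrpl3: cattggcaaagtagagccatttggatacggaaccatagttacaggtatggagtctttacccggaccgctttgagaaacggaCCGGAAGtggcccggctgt
Mrps6: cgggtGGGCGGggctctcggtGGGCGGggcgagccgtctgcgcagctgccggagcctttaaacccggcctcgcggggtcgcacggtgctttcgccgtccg
Slc5a3: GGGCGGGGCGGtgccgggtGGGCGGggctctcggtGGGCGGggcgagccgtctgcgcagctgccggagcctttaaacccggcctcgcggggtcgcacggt

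Of the 78 genes, 69 were in the RefSeq promoter table, with 75 promoters of 250 bases before to 50 bases after the start. The ETS motif CCGGAAG, searched on both strands like the others, was in 34.7% of these promoters, against 8.86% of all 32851 promoters in the table. The NRF-1 motif GCGCATGCG was in 9.33% against 1.75%, and the YY1 motif AAGATGGCG in 10.7% against 1.40%. At least 1 of these 3 was in 48.0% of the promoters and in 11.4% of all promoters. Of the 69 genes, 33 had none of the 3. The E-box CACGTG was in 9.33% against 7.15%, and the GC box GGGCGG in 52.0% against 35.7%. For comparison, of the promoters of cytosolic ribosomal proteins 36.0% held the ETS motif, 4% that of NRF-1, 8% that of YY1 and 48.0% at least 1 of them. Of those of nuclear oxidative phosphorylation subunits the shares were 23.2%, 11.6%, 10.1% and 37.7%. The GC box was in 60.0% and 36.2% of the promoters of these lists, and the E-box in 10.7% and 8.70%. A match is a description of the letters in this window and was not tested as a binding site.

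The 78 genes differed widely in level. Levels per length of the merged exons were compared in control ventricles, where the median was 25.3 CPM per kb for the large and 16.8 CPM per kb for the small subunit. Mrpl12, whose product forms part of the ribosomal stalk and also binds the mitochondrial RNA polymerase, had the highest level, 129 ± 17.5 CPM per kb (SD, n = 3). Mrps21 had 96.0 ± 12.4 and Mrpl28 94.4 ± 12.2 CPM per kb, and the ranges of Mrps21 (85.1 to 110) and Mrpl28 (83.0 to 107) overlapped, while that of Mrpl12 (112 to 147) lay above both. The lowest were Mrps10 with 3.51 ± 0.303, Mrpl17 with 5.33 ± 0.532 and Mrps30 with 5.42 ± 0.307 CPM per kb. The highest level was 36.8 times the lowest. Per length of the longest coding transcript, Mrpl42 came first at 410 CPM per kb and Mrpl17 last at 5.55 CPM per kb, and 6 of the 10 highest genes were shared between the lengths. The order within the group thus depends on the length used, but the fold changes do not.

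In controls, 75 of the 78 genes were higher in ventricles than in atria, 1 was lower and 2 did not pass the test. Among all 17451 genes tested, 27.5% were higher and 28.3% lower, and 36.3% of the genes within the range of mean CPM of the 78 (16.1 to 205) were higher. The median difference was 0.82 on the log2 scale (quartiles 0.63 and 0.95), or 1.77-fold, against -0.03 for all genes tested. A rise of at least 1.5-fold was found for 63, against 16.6% of all genes. For 75, the 3 ventricular libraries lay above the 3 atrial ones without overlap, against 30.7% of all genes. Of the large subunit, 47 of 49 genes were higher (median 0.86), and of the small subunit, 28 of 29 (median 0.80).

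In CUG960 mice, 74 were higher in ventricles, 1 was lower and 3 did not pass. Of the 17559 genes tested, 27.5% were higher and 26.7% lower, and of those within the same range of CPM, 35.6% were higher. The median difference was 0.69, or 1.61-fold, against -0.01 for all genes. The rise was at least 1.5-fold for 55 (16.4% of all genes), and for 74 the chambers did not overlap (30.3% of all genes). The large subunit had 47 of 49 genes higher (median 0.73) and the small subunit 27 of 29 (median 0.62). The controls and the CUG960 mice are separate animals, so both comparisons rest on different libraries.

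The scaling sets the size of these differences. Mitochondrially encoded transcripts took 10.9% to 12.2% of the counts in atria, 19.6% to 20.5% in control ventricles and 15.3% to 18.4% in CUG960 ventricles, and the TMM factors were 1.12 to 1.18 in atria and 0.819 to 0.906 in ventricles. Before any such factor, the 78 genes together held 0.307% to 0.354% of all counts in atrial libraries and 0.368% to 0.435% in ventricular ones, without overlap. With library totals alone, 57 genes were higher and 3 lower in controls (median 0.37), and 52 higher and 3 lower in CUG960 mice (median 0.30), while all genes had medians of -0.49 and -0.40. Under that scaling 12.9% of all genes were higher and 58.2% lower in control ventricles, and 13.7% higher and 53.7% lower in CUG960 ventricles. The 78 genes thus stood 0.85 above all genes in controls and 0.70 in CUG960 mice, close to the 0.86 and 0.70 with TMM. In bulk tissue, more cells of a type and more RNA per cell cannot be told apart.

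**Figure D1:**
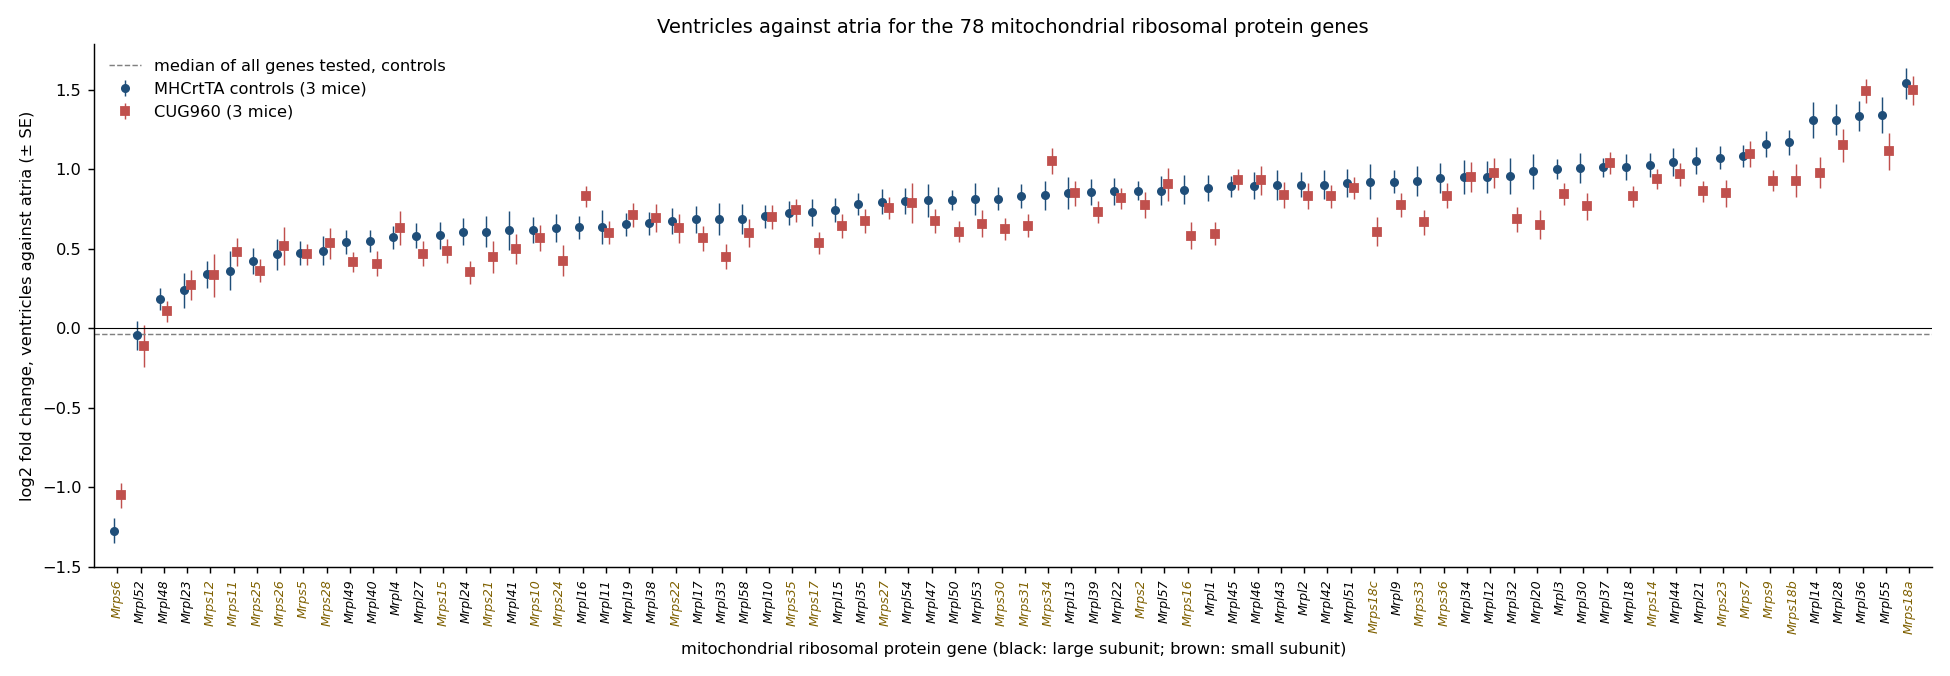
Log2 fold change of ventricles against atria (y axis, ± SE) for each of the 78 genes, ordered by the value in controls, with controls as circles and CUG960 mice as squares (3 mice each). With TMM scaling all genes but Mrps6 and Mrpl52 are above 0 in both genotypes, with a median of 0.82 in controls, while with library totals alone further genes, Mrpl48 among them, go below 0.

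Mrps18a had the largest difference. Its product is a relative of bacterial protein S18 that has been placed in the large subunit. It was at 25.7, 23.9 and 24.8 CPM in control atria and at 73.5, 79.6 and 61.8 CPM in control ventricles, and at 27.4, 27.6 and 23.5 CPM in CUG960 atria and 66.5, 75.2 and 77.1 CPM in CUG960 ventricles. Every ventricular library was far above every atrial one. The log2 fold change was 1.54 ± 0.10 in controls (adjusted p = 4.83e-06, edgeR) and 1.499 ± 0.09 in CUG960 mice (adjusted p = 1.78e-06). The gene lies at chr17:46110986-46128910 on the plus strand of GRCm38.

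Of the large subunit genes, Mrpl55, Mrpl36, Mrpl28 and Mrpl14 followed in controls, and Mrpl36, Mrpl28 and Mrpl55 in CUG960 mice. Mrpl36, whose product has a small bacterial relative, was at 15.2, 15.1 and 15.1 CPM in control atria and 36.5, 42.9 and 34.3 CPM in control ventricles, a log2 fold change of 1.34 ± 0.09 (adjusted p = 7.98e-06, edgeR). In CUG960 mice it was at 14.8, 14.8 and 13.97 CPM in atria and 38.8, 43.2 and 39.1 CPM in ventricles, which differed by 1.49 ± 0.08 (adjusted p = 6.33e-07). The atrial libraries of both genotypes were nearly level and the chambers did not overlap. Mrpl55, a protein of mitochondrial ribosomes alone, differed by 1.34 ± 0.11 in controls (adjusted p = 2.4e-05) and 1.11 ± 0.12 in CUG960 mice (adjusted p = 4.49e-05). Mrpl28 was at 55.0, 52.6 and 50.8 CPM in control atria and 128, 148 and 114 CPM in control ventricles, and differed by 1.31 ± 0.10 (adjusted p = 1.1e-05). In CUG960 mice Mrpl28 was at 62.9, 57.7 and 52.9 CPM in atria and 112, 142 and 127 CPM in ventricles, a difference of 1.15 ± 0.10 (adjusted p = 1.65e-05). Mrpl14, a relative of a core protein of the bacterial large subunit, differed by 1.31 ± 0.11 in controls (adjusted p = 2.34e-05) and 0.98 ± 0.10 in CUG960 mice. These 4 genes lie on the plus strand of GRCm38, Mrpl36 at chr13:73328513-73332178, Mrpl55 at chr11:59202486-59206134, Mrpl28 at chr17:26123500-26126613 and Mrpl14 at chr17:45686322-45698495.

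Of the small subunit genes, Mrps7, a relative of a protein of the head of the bacterial small subunit (chr11:115603925-115608036, plus strand), was at 34.7, 35.7 and 34.7 CPM in control atria and 74.2, 78.6 and 68.4 CPM in control ventricles. CUG960 mice had 37.0, 35.9 and 32.9 CPM in atria and 69.3, 81.4 and 72.6 CPM in ventricles. Ventricles lay well above atria in each genotype, and the log2 fold changes were 1.09 ± 0.07 and 1.10 ± 0.08 (adjusted p = 5.21e-06 and 6.22e-06, edgeR). The other relatives of bacterial S18 rose as well, Mrps18b by 1.17 ± 0.08 in controls and 0.93 ± 0.10 in CUG960 mice, and Mrps18c by 0.92 ± 0.11 and 0.61 ± 0.09. Mrps30, named for the small subunit although its product has been placed in the large one, rose by 0.82 ± 0.07 and 0.62 ± 0.07. Mrps36, whose product is known as a subunit of the 2-oxoglutarate dehydrogenase complex, rose by 0.95 ± 0.09 and 0.84 ± 0.08.

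The 4 genes known from inherited cardiomyopathy were all higher in ventricles. Mrpl3, of the large subunit core (chr9:105053239-105079888, plus strand), was at 62.2, 58.0 and 59.5 CPM in control atria and 121, 123.3 and 113 CPM in control ventricles, a log2 fold change of 1.004 ± 0.06 (adjusted p = 4.51e-06, edgeR). CUG960 mice had 56.9, 53.2 and 58.0 CPM in atria and 95.6, 99.7 and 103 CPM in ventricles, which differed by 0.85 ± 0.07 (adjusted p = 9.09e-06). The chambers stood far apart in both genotypes, and CUG960 ventricles lay between control ventricles and atria. Mrpl44, which has a fold related to ribonuclease III, rose by 1.05 ± 0.09 in controls and 0.97 ± 0.07 in CUG960 mice. Mrps14 rose by 1.03 ± 0.08 and 0.94 ± 0.06, and Mrps22 by 0.68 ± 0.08 and 0.63 ± 0.09. Mrpl12 rose by 0.95 ± 0.10 and 0.98 ± 0.09, from 98.6, 106 and 105 CPM in control atria to 196, 226 and 172 CPM in control ventricles.

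A few genes stood apart at the low end and are named here because of their values. Mrpl52, a protein of mitochondrial ribosomes alone (chr14:54426909-54429756, plus strand), was at 29.9, 26.2 and 26.3 CPM in control atria and 24.3, 29.3 and 25.6 CPM in control ventricles. CUG960 mice had 35.2, 34.3 and 27.2 CPM in atria and 30.4, 33.7 and 24.3 CPM in ventricles. The chambers overlapped in both genotypes, with log2 fold changes of -0.04 ± 0.09 and -0.11 ± 0.13 (adjusted p = 0.704 and 0.516, edgeR). Without control mouse V327 the value of Mrpl52 in controls was 0.077, and with library totals alone it was lower in ventricles of both genotypes (-0.50 in each, adjusted p = 0.000969 and 0.0102).

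Mrpl48 (chr7:100545751-100608301, minus strand) was at 42.3, 41.3 and 43.2 CPM in control atria and 46.7, 51.4 and 45.1 CPM in control ventricles, a log2 fold change of 0.19 ± 0.07 (adjusted p = 0.0492, edgeR). In CUG960 mice it was at 44.2, 40.9 and 40.0 CPM in atria and 44.2, 43.9 and 45.0 CPM in ventricles, and did not pass (0.11 ± 0.07, adjusted p = 0.212). The call in controls was lost with the mouse as a block (adjusted p = 0.0847), with DESeq2, upper quartile scaling, no filter or a stricter filter, and without any 1 of the 3 mice. With library totals alone Mrpl48 was lower in ventricles, by -0.27 in controls and -0.29 in CUG960 mice (adjusted p = 0.00494 and 0.00583). Its counts are uncertain, since its exons share 708 bases with those of Rab6a on the opposite strand, and a processed pseudogene, Mrpl48-ps, matches it at 98.1% over 636 bases and held 16.5% of its median count. Mrpl23 did not pass in controls (0.24 ± 0.11, adjusted p = 0.0995) and passed in CUG960 mice (0.27 ± 0.09, adjusted p = 0.0357). It passed in controls without V334 (adjusted p = 0.0325), and its call in CUG960 mice was lost without V120 or V123 (adjusted p = 0.175 and 0.144), with upper quartile scaling, with a stricter filter and with all 12 libraries in 1 fit. Mrps12, a relative of the bacterial protein that takes part in decoding, passed in controls (0.34 ± 0.09, adjusted p = 0.0104) and not in CUG960 mice (0.33 ± 0.14, adjusted p = 0.0642), where it passed with the mouse as a block (adjusted p = 0.00852), with DESeq2 (0.0388), with no filter (0.0369) and with all 12 libraries in 1 fit (0.0410). Its call in controls was lost without V327 or V333 (adjusted p = 0.0590 and 0.0811). The call of Mrps11 in controls (0.36 ± 0.12, adjusted p = 0.0358) was lost with upper quartile scaling (0.0510) and without V327 or V333 (0.157 and 0.177). For Mrpl23 and Mrps12 the sign turned with library totals alone, without a call.

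Mrps6 was the only one of the 78 that passed the test as lower in ventricles with TMM scaling. It encodes a small subunit protein with a bacterial relative and lies at chr16:92058270-92112227 on the plus strand of GRCm38. It was at 88.1, 83.5 and 78.3 CPM in control atria and 33.6, 37.3 and 31.9 CPM in control ventricles, with means of 83.3 ± 4.90 and 34.2 ± 2.77 CPM (SD, n = 3). In CUG960 mice it was at 96.1, 98.4 and 96.2 CPM in atria and 42.1, 50.7 and 46.0 CPM in ventricles. Every atrial library was above every ventricular one, and the log2 fold change was -1.27 ± 0.08 in controls (adjusted p = 4.83e-06, edgeR) and -1.05 ± 0.08 in CUG960 mice (adjusted p = 5.99e-06). It was negative and passed the test under every alternative run.

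The locus of Mrps6 is shared. Slc5a3, which encodes a sodium and myo-inositol cotransporter, lies at chr16:92058322-92087473 on the same strand, starts 14 bases before Mrps6 in RefSeq (the promoter runs above share most of their bases) and has 159 bases of exon in common with the 1533 bases of Mrps6. The spans given here are from GENCODE, where Mrps6 begins before Slc5a3, so the order of the starts differs between the annotations. Slc5a3 was at 12.97, 25.3 and 24.5 CPM in control atria and 5.18, 4.98 and 7.83 CPM in control ventricles. In CUG960 mice it was at 18.4, 21.6 and 18.3 CPM in atria and 5.72, 5.05 and 6.11 CPM in ventricles. It too was lower in ventricles without overlap, by log2 fold changes of -1.79 ± 0.27 in controls and -1.77 ± 0.11 in CUG960 mice (adjusted p = 0.000709 and 1.96e-06, edgeR). Slc5a3 is named because of its place. RSEM divides reads between genes that share exons, and the part of such reads in the counts of Mrps6 was not tested.

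**Figure D2:**
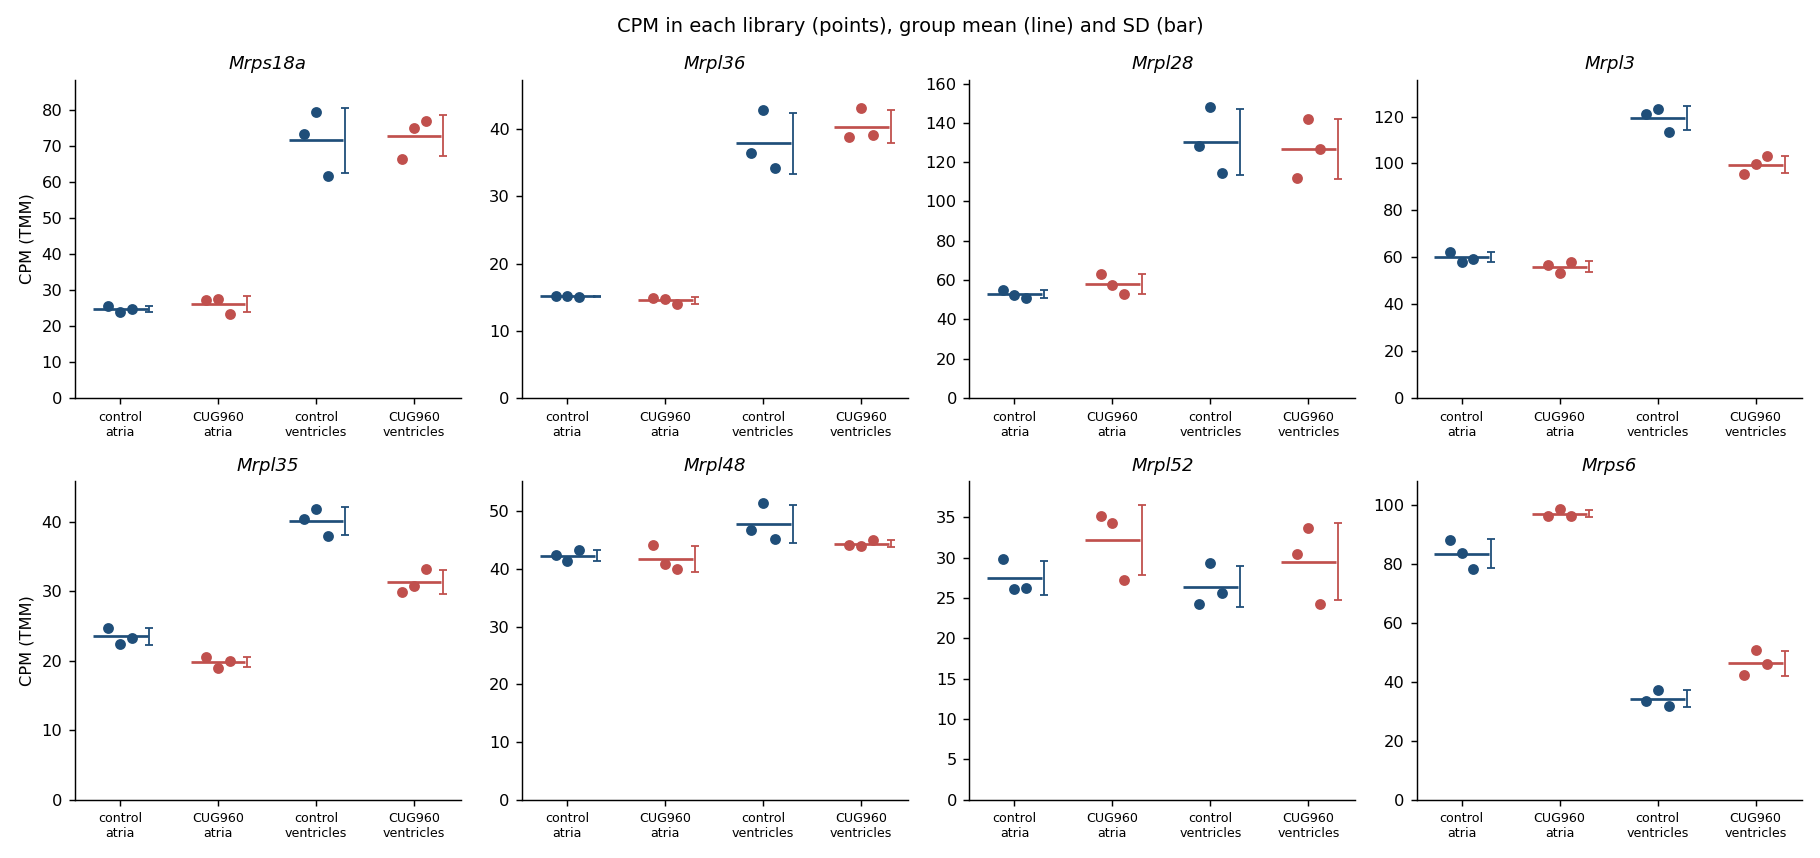
CPM of 8 of the genes (y axes, from 0) in each library (points), with the group mean (line) and SD (bar), for atria and ventricles of controls (blue) and CUG960 mice (red), 3 mice per group. Mrps18a, Mrpl36, Mrpl28, Mrpl3 and Mrpl35 are higher in ventricles, Mrpl48 and Mrpl52 are nearly level, and Mrps6 falls from 83.3 to 34.2 CPM in controls.

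Between genotypes in atria, 4 of the 78 genes were higher in CUG960 mice, 1 was lower and 73 did not pass. All 4 that rose belong to the small subunit, but genes of the large subunit, such as Mrpl24 and Mrpl27, passed as higher too with DESeq2, with library totals alone and without V123. With library totals alone 12 were higher and 0 lower, against 9.85% and 5.07% of all genes. Of all 17650 genes tested, 7.95% were higher and 6.62% lower, and 19.9% of the genes within the range of CPM of the 78 passed in either direction, so that 5 of 78 was no larger a share than that of genes of like level. None of the 5 reached 1.5-fold, against 5.49% of all genes that passed with that fold. Without overlap between the genotypes, 21 of the 78 lay higher and 7 lower, against 3355 and 2944 of all 17650 genes tested. The median was 0.07 (all genes -0.01), with 55 values above and 23 below 0. It was 0.05 for the large and 0.12 for the small subunit.

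Mrps5 (chr2:127587222-127606829, plus strand), a relative of a bacterial protein near the entry of the messenger RNA, was at 27.4, 27.2 and 27.9 CPM in control atria and 33.4, 34.4 and 33.1 CPM in CUG960 atria. The groups were narrow and did not overlap, with a log2 fold change of 0.28 ± 0.05, or 1.22-fold (adjusted p = 0.0115, edgeR). This call was lost in 1 of 14 alternatives, without V333 (adjusted p = 0.0580). Mrps25, which shares 4590 of its 6576 exon bases with Nr2c2 on the opposite strand, was at 66.5, 61.8 and 63.2 CPM in control and 85.7, 76.8 and 73.7 CPM in CUG960 atria (0.30 ± 0.07, adjusted p = 0.0295). Mrps10 was at 19.4, 18.2 and 18.4 CPM in control and 24.2, 23.8 and 21.01 CPM in CUG960 atria (0.30 ± 0.07, adjusted p = 0.0316). In each of these genes the lowest CUG960 library was above the highest control. Mrps24, which shares 226 of its 1466 exon bases with Urgcp on the same strand, was at 30.1, 29.6 and 28.05 CPM in control and 37.3, 36.6 and 32.3 CPM in CUG960 atria (0.27 ± 0.07, adjusted p = 0.0391). Mrpl35 (chr6:71812997-71826969, minus strand) fell, from 24.8, 22.5 and 23.3 CPM in control to 20.5, 19.0 and 20.0 CPM in CUG960 atria (-0.25 ± 0.07, adjusted p = 0.0382). The calls of Mrps25, Mrps10 and Mrps24 were each lost without any 1 of 5 mice, all but V123, that of Mrpl35 without any 1 of the 6 mice, and none of the 5 calls held without V333.

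In ventricles, 2 genes were higher in CUG960 mice and 3 were lower, while 73 did not pass. Of all 16909 genes tested, 5.73% were higher and 4.2% lower, and 11.9% of the genes within the range of CPM of the 78 passed in either direction. None of the 5 reached 1.5-fold (4.75% of all genes). Without overlap between the genotypes, 6 of the 78 lay higher and 8 lower, against 2825 and 2445 of all 16909 genes tested. The median was -0.03 (all genes -0.01), with 34 values above and 44 below 0, and with library totals alone it was 0.085, with 7 genes higher and 0 lower (10.7% and 2.41% of all genes), while the median of all genes moved to 0.098. Without V333 it was 0.059 with 4 genes higher and 0 lower, and without V327 or V120 none of the 78 passed in either direction. The large subunit held 3 of the calls that fell and 1 that rose, and the small subunit 1 that rose, Mrps6.

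Mrps6 was at 33.6, 37.3 and 31.9 CPM in control and 42.1, 50.7 and 46.0 CPM in CUG960 ventricles. Its groups did not overlap, and the log2 fold change was 0.43 ± 0.10, or 1.35-fold (adjusted p = 0.0225, edgeR). In atria its value was 0.21 ± 0.06 (adjusted p = 0.0502). Slc5a3 did not pass in either chamber (-0.11 in atria and -0.10 in ventricles). Mrpl16, a relative of a bacterial large subunit protein near the catalytic centre, was at 38.3, 40.7 and 36.7 CPM in control and 47.6, 48.5 and 44.6 CPM in CUG960 ventricles (0.28 ± 0.08, adjusted p = 0.0473).

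Of the genes that fell, Mrpl1 (chr5:96209493-96266727, plus strand), a relative of a stalk protein, was at 45.5, 49.5 and 41.7 CPM in control and 36.9, 33.3 and 36.2 CPM in CUG960 ventricles (-0.37 ± 0.09, adjusted p = 0.0305, edgeR). Mrpl35 was at 40.4, 41.9 and 38.0 CPM in control and 30.0, 30.7 and 33.3 CPM in CUG960 ventricles (-0.36 ± 0.08, adjusted p = 0.0234). Mrpl35 passed in both chambers, in the same direction, although its call in atria was lost in 8 of 14 alternatives. Which genes pass in both depends on the setting. Mrps6 did so with DESeq2, upper quartile scaling, mitochondrially encoded genes left out, the stricter filter and library totals, and Mrps5 with DESeq2, all 12 libraries in 1 fit and library totals, each higher in CUG960 mice. With library totals Mrps10, Mrps25 and Mrps35 passed in both as well, each higher in CUG960 mice, and Mrpl35 in neither. Mrpl3 fell from 121, 123.3 and 113 CPM to 95.6, 99.7 and 103 CPM (-0.27 ± 0.07, adjusted p = 0.0459). No group overlapped for these 3 genes. Each of the 5 calls was lost in 4 to 9 of 14 alternatives.

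**Figure D3:**
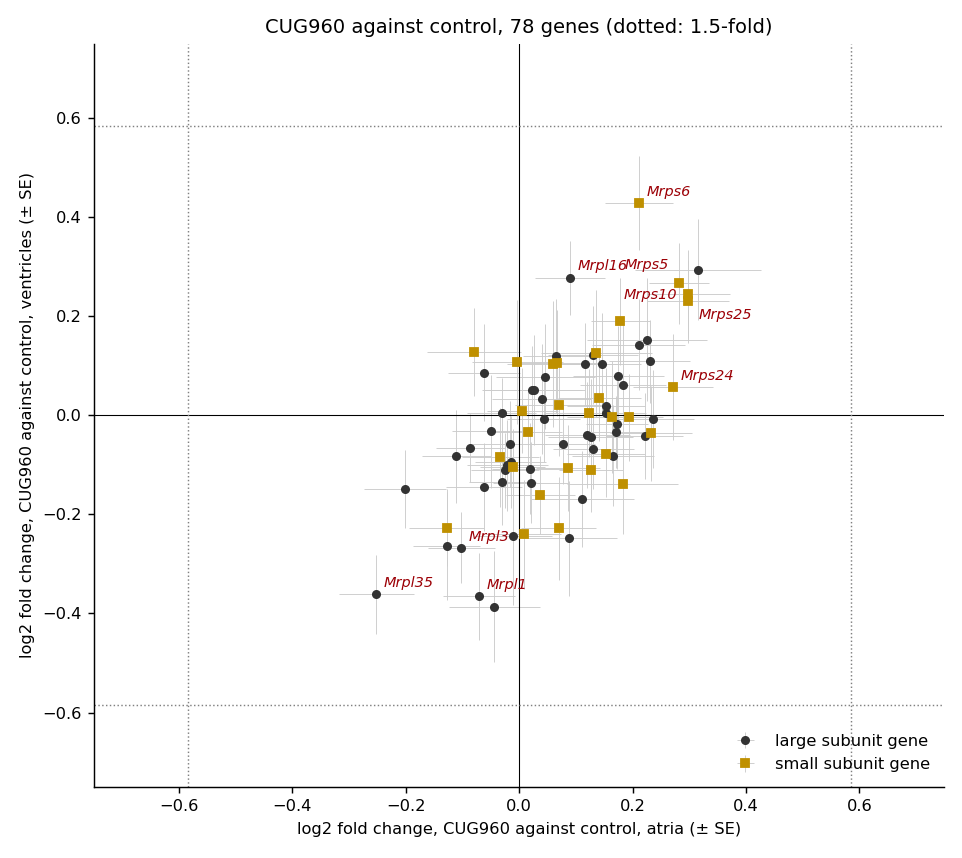
Log2 fold change of CUG960 against control in atria (x axis) and ventricles (y axis), each ± SE, for the 78 genes (circles, large subunit; squares, small subunit), with TMM scaling and with the genes that passed in either chamber named. All values lie inside the dotted lines of a 1.5-fold change, and most lie near 0 on both axes.

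The genotype effect was compared between chambers by the interaction of chamber and genotype, fitted over all 12 libraries. None of the 78 genes passed in edgeR, against 1.38% of the 18327 genes tested, and 9 had an unadjusted p under 0.05, a share near the 12.3% of all genes tested. DESeq2 also called 0. The median of the interaction, the genotype effect in ventricles minus that in atria, was -0.10 (all genes 0.00), with 18 values above and 60 below 0. Without V333 alone it was -0.0011. The smallest p belonged to Mrpl1 (-0.30 ± 0.10, unadjusted p = 0.0145, adjusted p = 0.247), followed by Mrpl50 (-0.21 ± 0.08, adjusted p = 0.326) and Mrpl24 (-0.26 ± 0.11, adjusted p = 0.362). Mrpl1 was at 25.5, 23.5 and 25.5 CPM in control and 24.7, 23.5 and 23.1 CPM in CUG960 atria, where the groups overlapped, unlike in ventricles. That the genotype effect on a gene differed between chambers was therefore not shown for any of the 78.

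The sum over each subunit was also compared. The large subunit genes summed to 1816 ± 53.0 CPM in control atria, 1898 ± 88.0 CPM in CUG960 atria, 3224 ± 314 CPM in control ventricles and 3135 ± 126 CPM in CUG960 ventricles (SD, n = 3). The small subunit genes summed to 904 ± 18.9, 998 ± 39.4, 1468 ± 136 and 1490 ± 55.1 CPM in the same order. The ratio of large to small was 2.03, 1.99 and 2.01 in control atria and 1.92, 1.90 and 1.89 in CUG960 atria. In ventricles it was 2.20, 2.20 and 2.18 in controls and 2.10, 2.12 and 2.09 in CUG960 mice. The ratio was thus higher in ventricles than in atria of each genotype and lower in CUG960 mice than in controls of each chamber, with no overlap between the groups. An exact permutation test of 3 libraries against 3 cannot go under p = 0.1, so these values are a description.

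The ratio also depends on which genes carry it. With Mrps18a and Mrps30 counted in the large subunit the mean ratio was 2.17 and 2.05 in control and CUG960 atria and 2.45 and 2.34 in control and CUG960 ventricles. Without the 2 most abundant genes it was 1.73, 1.66, 1.87 and 1.80. Without Mrps6 it was 2.21, 2.11, 2.25 and 2.17, and the chambers of controls then overlapped (2.19 to 2.24 in atria and 2.24 to 2.26 in ventricles, with the highest atrial library above the lowest ventricular one), although the ventricle was above the atrium within each of the 3 control mice, while CUG960 libraries lay below those of controls in each chamber. As another measure, the log2 CPM of each gene was taken relative to its mean in control atria. The median of these values over the small subunit was subtracted from that over the large, which puts control atria near 0 by construction. This difference overlapped between the genotypes of each chamber, and did not overlap between the chambers of each genotype.

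**Figure D4:**
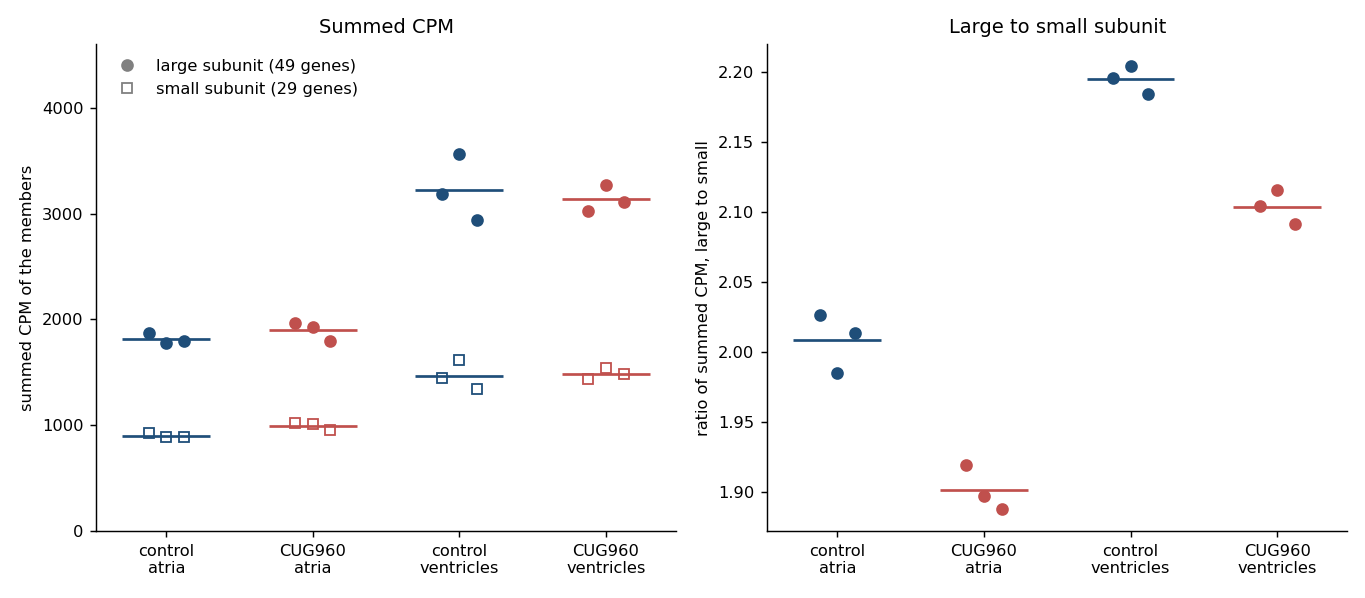
Left, summed CPM of the 49 large (filled circles) and 29 small subunit genes (open squares) in each library, from 0; right, the ratio of the sums, on an axis that does not start at 0. Lines are means of 3 mice in control (blue) and CUG960 (red) atria and ventricles. Both sums are higher in ventricles, and the mean ratio runs from 1.90 in CUG960 atria to 2.20 in control ventricles.

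Other genes of mitochondrial gene expression had a chamber difference of the same sign. Of 5 further mitoribosomal proteins without an Mrp symbol (Dap3, Ptcd3, Chchd1, Aurkaip1 and Gadd45gip1), all 5 were higher in ventricles in both genotypes (median 0.63 in controls and 0.56 in CUG960 mice). Of the translation factors, 15 of 16 were higher in each genotype (medians 0.84 and 0.67), among them Tufm, the elongation factor that brings transfer RNA to the ribosome. Tufm was at 88.1, 85.9 and 82.9 CPM in control atria and 234, 258 and 220 CPM in control ventricles, a log2 fold change of 1.48. Of the mitochondrial aminoacyl-tRNA synthetases and their relatives, 16 of 20 were higher in each genotype (0.53 and 0.66). Genes of mitochondrial DNA replication and transcription were higher in 13 and 12 of 14 (0.66 and 0.49), and those of mitoribosome assembly in 21 and 22 of 27 (0.54 and 0.47), with 2 and 1 lower.

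The messenger RNAs that the mitochondrial ribosome translates, and the nuclear genes of the same complexes, were mostly higher in ventricles too. All 13 mitochondrially encoded messenger RNAs were higher in control ventricles (median 1.16), and 12 of 13 in CUG960 ventricles (0.89). Of the nuclear genes of oxidative phosphorylation subunits, 76 of 78 were higher in controls and 75 in CUG960 mice (1.13 and 0.98). Cytosolic ribosomal proteins, which serve the other ribosome of the cell, had medians of 0.04 and 0.00, with 12 of 87 higher and 4 lower in controls and 13 of 86 higher and 4 lower in CUG960 mice. Of 10 transcriptional regulators of nuclear genes for mitochondria, none was higher and 3 were lower in control ventricles, namely Gabpb2 (-0.37), Nrf1 (-0.36) and Pprc1 (-0.30). In CUG960 mice Ppargc1b was higher (0.99) and Nrf1 and Gabpb2 were lower. These medians are given beside -0.03 and -0.01 for all genes, and the lists were not tested against each other.

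Between genotypes, few genes of these lists passed. Of the mitochondrially encoded messenger RNAs, 3 of 13 were lower in CUG960 ventricles, mt-Nd1 (-0.69, adjusted p = 0.00986, edgeR), mt-Co2 (-0.60) and mt-Nd2 (-0.59). All 13 had values below 0 in ventricles (median -0.37, all genes -0.01). In atria 8 were below and 5 above 0 (median -0.06), and 1 passed as lower. The transcript of mt-Nd1, a subunit of complex I, was at 18417, 17755 and 15385 CPM in control and 11509, 9171 and 11363 CPM in CUG960 ventricles, without overlap. It was also lower in atria (-0.39). The nuclear partners had 1 higher and 1 lower gene in atria, Ndufa12 and Ndufs7 (-0.27), and none in ventricles, with medians of 0.05 and -0.08. Of the assembly genes, Rbfa (0.35) and Nsun4 (0.28) rose in atria, while in ventricles Trub2 rose (0.40) and Mrm3 fell (-0.44). Taco1, a translational activator of cytochrome c oxidase subunit I, fell in atria (-0.32) and in ventricles (-0.27), and Lrpprc, which binds mitochondrial messenger RNAs, fell in ventricles (-0.37). In atria 3 of the 20 synthetase genes passed, Gatb (0.31) and Cars2 (0.26) higher and Tars2 (-0.28) lower, and so did Polg2 (0.50), a subunit of the mitochondrial DNA polymerase, and Gabpb2 (-0.30) of the regulators, of which 8 of 10 had values below 0 (median -0.16). None of these 3 lists had a call in ventricles. Of the cytosolic ribosomal proteins, Rps4l and Rpl22 were higher in atria, and in ventricles Rps4l was higher and Rpl22l1 lower (-0.42). Rbfa was at 23.4, 22.6 and 23.8 CPM in control and 31.3, 30.1 and 27.8 CPM in CUG960 atria, and Lrpprc at 182, 187 and 183 CPM in control and 143, 134 and 151 CPM in CUG960 ventricles. Neither gene's groups overlapped, as was the case for many of all genes tested in each chamber.

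**Figure D5:**
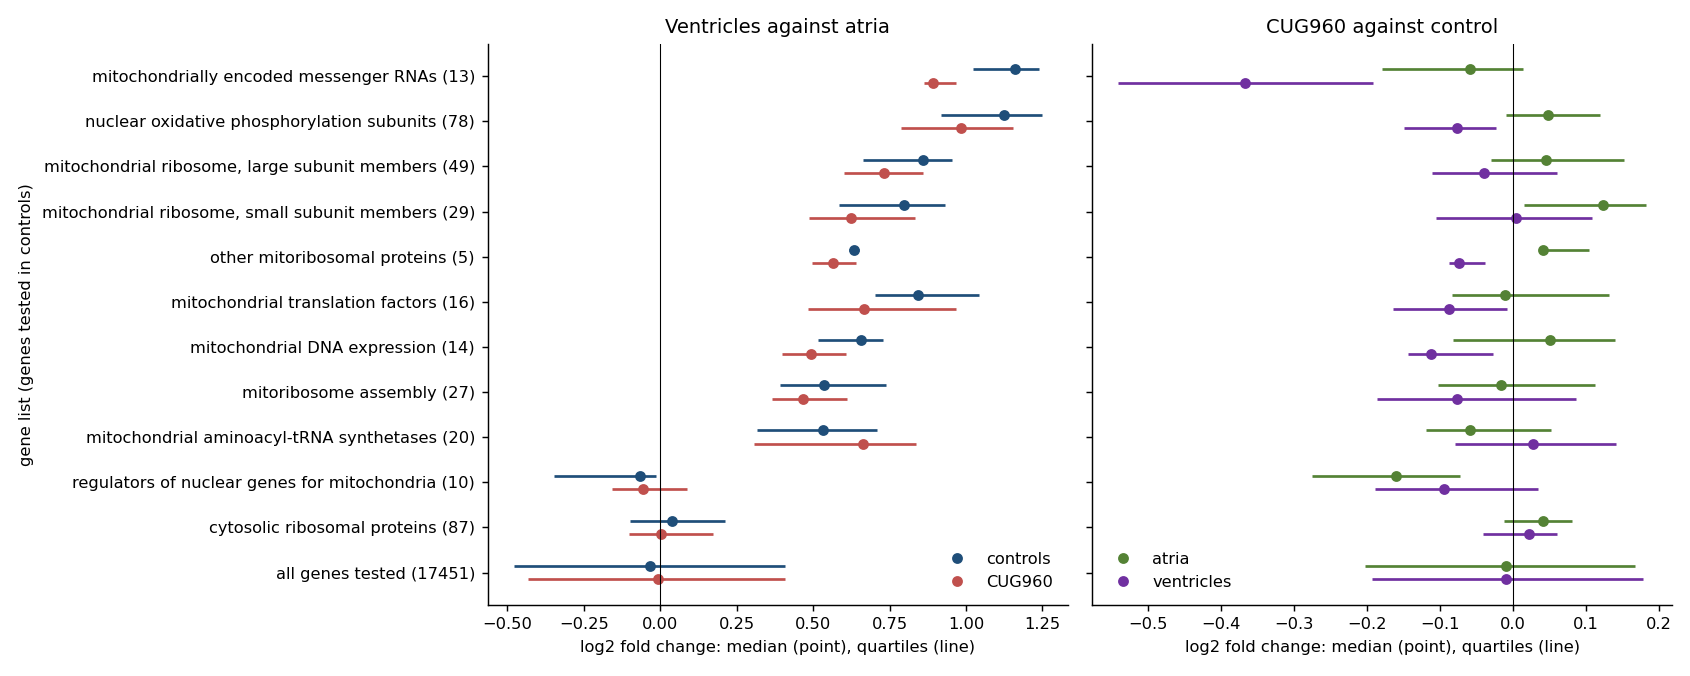
Median log2 fold change (points) with quartiles (lines) of each gene list, for ventricles against atria on the left (blue, controls; red, CUG960) and CUG960 against control on the right (green, atria; purple, ventricles), with TMM scaling. The lists of mitochondrial gene expression and oxidative phosphorylation lie right of 0 in the chamber comparison, and in the genotype comparison most medians lie near 0, apart from the mitochondrially encoded messenger RNAs in ventricles.

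Markers of cell types moved with the chamber. The 6 cardiomyocyte markers, of which Myh6 was the most abundant, summed to 39948, 38463 and 40136 CPM in control atria and 50784, 53686 and 49697 CPM in control ventricles, and 4 of 6 were higher in ventricles of each genotype. In CUG960 mice the sums were 43574, 43132 and 41575 CPM in atria and 52524, 56404 and 53531 CPM in ventricles. The 6 fibroblast markers, led by Dcn, summed to 2148, 2471 and 2512 CPM in control atria and 1275, 1297 and 1485 CPM in control ventricles, and 5 of 6 were lower in ventricles of each genotype. Their sums in CUG960 mice were 2064, 2157 and 1825 CPM in atria and 1349, 1356 and 1364 CPM in ventricles. Neither sum overlapped between the chambers of a genotype. Of the 5 leukocyte markers, led by Lyz2, 4 were lower in control and 5 in CUG960 ventricles, with sums of 236, 201 and 502 CPM in control atria and 102, 86.8 and 110 CPM in control ventricles. In CUG960 mice they were 240, 265 and 235 CPM in atria and 98.2, 105 and 83.6 CPM in ventricles. Every one of the cardiomyocyte, fibroblast and leukocyte markers had reads in every library. Endothelial markers went both ways between chambers, with 3 of 6 higher and 2 lower in control ventricles. Of 5 erythroid markers, 1 was higher in control and 5 in CUG960 ventricles. Of 4 smooth muscle markers, 2 were higher and 2 lower in control ventricles, and 1 was higher and 2 lower in CUG960 ventricles. Markers of neurons and Schwann cells had 1 higher of 3 tested in controls, and 1 higher and 2 lower of 4 in CUG960 mice. Of 4 adipocyte markers tested, 0 passed in controls and 2 were lower in CUG960 ventricles. The part of these differences in cell make-up in the chamber difference of the 78 genes was not tested.

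Between genotypes, markers of several cell types passed the test. Of the endothelial markers, in atria 3 of 6 were lower in CUG960 mice, Pecam1 (-0.71), Tek (-0.62) and Cdh5 (-0.46), and in ventricles 4 of 6 were lower. The most abundant, Fabp4, is a fatty acid binding protein, and none of the 6 was at 0 in any library. The summed level was 949, 964 and 789 CPM in control and 620, 769 and 679 CPM in CUG960 atria. It was 1358, 1243 and 1213 CPM in control and 865, 880 and 946 CPM in CUG960 ventricles. The groups overlapped in neither chamber. In atria 2 of 6 fibroblast markers were lower in CUG960 mice (Pdgfra and Col1a2), of the cardiomyocyte markers Pln and Myh6 were higher and Ryr2 lower, and Tagln of the smooth muscle markers was higher. All 5 erythroid markers had values below 0 in atria without passing, and their sum was 515, 322 and 2764 CPM in control and 441, 324 and 354 CPM in CUG960 atria, high in the library of V334. In ventricles Ryr2, 2 of 4 adipocyte markers (Plin1 and Cfd) and 2 of 4 smooth muscle markers (Tagln and Myh11) were lower in CUG960 mice. The 6 cardiomyocyte markers, Ryr2 among them, had 3 values above and 3 below 0 in ventricles. Of the atrial markers, Nppa was lower in CUG960 atria (-0.42) and higher in CUG960 ventricles (1.301), where Bmp10 was lower (-4.06). In ventricles Irx4 of the ventricular markers was higher (0.36), and all 4 of these markers had values above 0 (median 0.22). Of the markers of neurons and Schwann cells, 3 were tested in ventricles, where 1 was higher and 1 lower in CUG960 mice. Their sum there was 19.9 to 21.4 CPM in control and 22.8 to 34.9 CPM in CUG960 libraries. In atria 4 were tested and 0 passed. Of 5 skeletal muscle markers 2 were tested in each chamber, and Tnnt3 was lower in CUG960 atria (-2.05). Their sum, nearly all of it Acta1, which the heart also expresses, was 798, 640 and 855 CPM in control and 196, 510 and 431 CPM in CUG960 ventricles, without overlap and without a call, and at most 12.6 CPM in atria. Between chambers Acta1 was higher in ventricles of both genotypes, and Tnnt3 was lower in those of controls. The part of these differences in the genotype values of the 78 genes was not tested.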

How the data were processed

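Poly(A) RNA was sequenced from atria and ventricles of 6 mice (12 libraries, paired-end, TruSeq Stranded mRNA). The authors aligned reads to mm10 (GRCm38) and deposited a single table of expected counts per gene from RSEM 1.3.1, per the labels and the study's methods. Its values are unscaled and unfiltered, and were rounded to whole numbers before use. Whether counting used strand is not given in the sources used here. Of the 78 genes, 8 share exon bases with another gene on the same strand, 28 with a gene on the opposite strand, and 19 have a near-identical pseudogene copy (at least 95% over 100 bases), so that their counts are less certain.

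Groups were taken from the labels. Each comparison was fitted over its own libraries with edgeR 4.0.16 in R 4.3.3 (filterByExpr, TMM, glmQLFit, glmQLFTest), with Benjamini-Hochberg adjustment over all genes tested, at 0.05. CPM use TMM factors over all 12 libraries. SE were derived from the F statistic. Coordinates are from GENCODE M21 (GRCm38), a later release than the authors counted on, and promoters from RefSeq (GRCm38.p6). Start sites can differ between them, as for Mrpl36, whose RefSeq start lies inside its GENCODE span. Copies were found with blastn 2.17.0, and figures drawn with Python 3.11.15 and matplotlib 3.10.9. Only the main edgeR fit was tested on simulated counts, for some of the comparisons and with changes larger than those of the genotype calls.

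Libraries of 1 mouse share its number, so the chambers are paired by design. Across genes, deviations from the group means correlated at 0.0465 to 0.285 within a mouse and at -0.342 to 0.130 between mice, ranges that overlap. Deviations within a group cancel out, so positive values within mice lower those between mice. These values are a description and do not test the pairing. A fit with the mouse as a block was an alternative.

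The 78 genes, the other gene lists and the tests were chosen with earlier results of these data known. Genes named were those that passed between genotypes, up to 5 in each direction between chambers, the 3 with the smallest interaction p, the 3 highest and 3 lowest per length, those of inherited cardiomyopathy or a second role, up to 2 per other list, and markers. Mrpl52, Mrpl48, Mrpl23, Mrps12, Mrps11, Mrps35, Mrpl42, Mrpl24, Mrpl27, Slc5a3, Tufm and the regulators were named after their values were seen.

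Alternatives were DESeq2 1.42.0, other scalings (RLE, upper quartile, mitochondrially encoded genes left out, library totals), no filter or at least 10 counts in every library, a fold of 1.5, all libraries in 1 fit, the mouse as a block, and each mouse left out.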

Additional observations from a re-analysis of the deposited data

How the results depend on the processing

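The chamber counts that were higher kept within 1.5 times of 75 and 74 under every alternative run, the fewest being with library totals alone. There the medians were 0.37 in controls and 0.30 in CUG960 mice, and 3 genes were lower in each (Mrps6, Mrpl48 and Mrpl52). Single values that turned with library totals were Mrpl48 (-0.27 in controls, -0.29 in CUG960 mice), Mrpl23 (-0.22, -0.12) and Mrps12 (-0.12, -0.057), along with Mrps11 (-0.097) and Mrps25 (-0.033) in controls and Mrps25 (-0.031) and Mrpl24 (-0.042) in CUG960 mice, and Mrpl52 in controls ran from -0.16 to 0.077 with 1 mouse left out, above 0 without V327. With 1 mouse left out, 72 to 75 genes were higher in controls (median 0.74 to 0.86) and 73 to 74 in CUG960 mice (0.65 to 0.73). With the mouse as a replicate block, 74 were higher in controls, 75 in CUG960 mice, and 0 passed the interaction, whose median was -0.09.

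Genotype counts were small and moved. In atria, DESeq2 called 10 higher, where 3427 of 17160 genes passed in either direction, and library totals 12 higher and 0 lower (2633 of 17650 genes). Without the filter 0 were lower (2718 of 28064 genes). In ventricles, library totals gave 7 higher and 0 lower (median 0.085), no filter 1 higher, and all 12 libraries in 1 fit 5 lower, where 2210 of 16909, 2189 of 27223 and 2477 of 18327 genes passed. With a fold of 1.5, 0 were higher or lower in either chamber. With 1 mouse left out, 0 to 12 were higher in atria and 0 lower (median 0.05 to 0.11), and 0 to 4 were higher and 0 to 3 lower in ventricles (median -0.08 to 0.06). The 12 came without V123, where 2584 of 18076 genes passed, and the 4 without V333 (1347 of 17351). Without any other 1 mouse, 784 to 1911 genes passed in the chamber concerned. The interaction median ran from -0.14 to 0.00. The causes were not tested. With 3 mice per group precision is limited, and the part of depth in it was not tested.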
